A study of Mus musculus with 21 samples.

Results

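The libraries described here were RNA-Seq profiles of polymorphonuclear neutrophils (PMNs) from sham-operated mice, 3 after remote ischemic preconditioning (RIPC) and 2 after a control procedure, and were 5 of the 21 libraries of the study. They were chosen by their labels alone. The comparison asks what RIPC did to neutrophils in animals whose kidneys were never ischemic. RIPC is a series of short ischemic episodes at a distant site; in the study's methods a pressure cuff around the hind limb was inflated repeatedly in anesthetized mice. All mice were wildtype by their labels, and the methods give young adult male mice of the C57BL/6 strain for the study as a whole. Sham surgery exposed the kidneys without clamping their pedicles, and cells were taken 24 hours later. The labels name blood as the source of these neutrophils, and tubular epithelial cells (TECs) from kidney are the other cell type of the series. Neither the time of day of sampling nor the animal behind each library is given in the sources used here, so p-values measure the spread between libraries. A figure legend of the study gives 3 biological replicate libraries per group, while the series held 2 sham control PMN libraries. The other 5 PMN libraries, 2 controls and 3 RIPC libraries after renal ischemia-reperfusion injury (IRI), entered the same fit and are shown beside the sham values.

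Neutrophils are short-lived granulocytes that leave the bone marrow with their granule proteins largely made, circulate in blood and enter inflamed tissue through selectins, integrins and chemokine receptors. Circulating cells sense tissue damage through pattern receptors such as TLR4, for which the nuclear protein HMGB1 is a ligand once released, and respond through NF-κB. F10 encodes coagulation factor X, the zymogen of the protease that converts prothrombin to thrombin, made mainly in liver. Nr1d1 encodes REV-ERBα, a nuclear receptor that represses transcription in the circadian clock and whose own transcript rises and falls over the day in many tissues.

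The 5 libraries held between 20881334 and 23517048 reads. They were alike in depth and differed in content, the controls included. Control 1 had reads in 25436 genes and control 2 in 16846, with 17484 to 20543 in the RIPC libraries. The share of mitochondrial reads was 2.37% in control 1 and 13.0% in control 2, and 3.70% to 5.81% after RIPC. Control 1 held 2460 genes with at least 10 reads that had none in the other 4 libraries, against 470 to 1040 in each of the others. No read in control 1 and at least 100 in control 2 was found for 606 genes, and the reverse for 2778. Between RIPC libraries such genes numbered 1139 to 1881 in each direction. The correlation of log2(CPM + 1) between the controls was 0.701 over all genes measured, where other pairs of the 5 went as low as 0.681, and 0.553, the lowest of the 10 pairs, over the well-expressed genes defined below, where CPM are reads scaled to a common library size. The 2 files deposited for each library correlated at 0.997 or more, so the difference lay between libraries and not between files of a library.

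Neutrophil markers were abundant in all 5 libraries. The summed level of 30 neutrophil identity genes, in TPM (a transcript level scaled to its length and to the library total), was 49780 in control 1, 16853 in control 2 and 20547, 18024 and 10829 in RIPC 1, 2 and 3, against at most 17.7 in TECs after sham surgery. S100a8, a calcium-binding protein that fills the neutrophil cytosol, stood at 4577 to 22347 TPM. Transcripts of 2 other cell types moved along with the libraries. A sum of 4 proximal tubule genes was 1139 TPM in control 1, 7862 TPM in control 2 and 4366, 4301 and 2471 TPM in the RIPC libraries, while it was 2201 to 6138 TPM in the TECs of sham controls and 382 to 704 TPM in PMNs after IRI. Monocyte and macrophage markers, 7 genes led by the complement genes C1qa and C1qb, summed to 2368 and 2073 TPM in the controls and to 3651, 4296 and 1545 TPM after RIPC, against under 10 TPM in TECs of sham-operated mice and 219 to 743 TPM in PMNs after IRI. In log2(CPM + 1) their mean was 8.03 and 6.07 in the controls and 9.06, 8.69 and 7.43 after RIPC. The difference of RIPC minus control was 1.34, and without 1 library it ranged from 0.36 (control 2 left out) to 2.33 (control 1 left out). In the fit described below all 7 were higher after RIPC, with 0 at an unadjusted p under 0.05, while 12119 of 25002 genes tested were higher. Markers of B cells (1.67 to 27.8 TPM), T and NK cells (1.22 to 33.1 TPM) and endothelium (0.384 to 4.50 TPM) were low, platelet markers summed to 29.2 to 232 TPM, erythroid markers to 55.7 to 190.8 TPM, and 3 of 4 eosinophil and basophil genes had no read. The tubule sum of control 2 was above that of every TEC library of the sham controls, and those of RIPC 1, 2 and 3 lay within the range of those TECs, so the kidney transcripts in these libraries go against a label of blood neutrophils alone. Whether the source or the sort is as labelled was not tested, and neither was the part of these other transcripts in the differences given below. In bulk RNA, fewer cells of a type and less RNA per cell cannot be told apart.

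**Figure D1:**
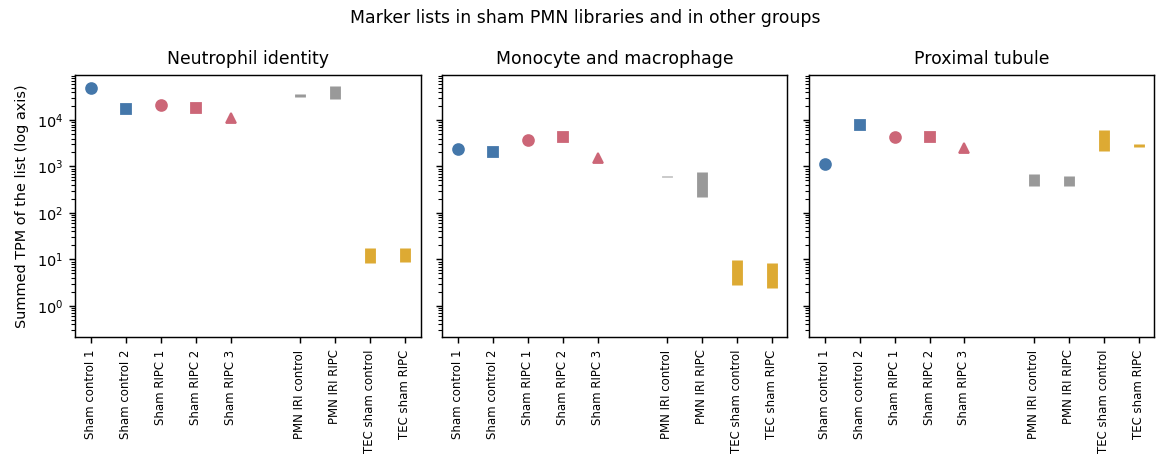
Summed TPM (log axis) of neutrophil identity genes, monocyte and macrophage markers and proximal tubule markers. Points are the 5 sham PMN libraries (blue control, red RIPC) and bars the lowest to highest library of PMNs after IRI (grey) and TECs after sham surgery (yellow). Control 2 had the highest tubule sum, 7862 TPM, and control 1 the highest neutrophil sum, 49780 TPM.

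Between RIPC and control, 1 of 25002 genes passed the test in sham PMNs. F10 fell, and no gene rose, by edgeR's quasi-likelihood test at an adjusted p under 0.05, so the share called was 0.004% for lower and 0% for higher. At an unadjusted p under 0.05 there were 306 genes higher (1.22%) and 844 lower (3.38%). The outcome depended on the tool. On the same counts DESeq2's Wald test called 429 genes higher (1.72%) and 494 lower (1.98%), of which 552 had no read in any library of either the control or the RIPC group, and DESeq2 with apeglm shrinkage and an s-value under 0.01 called 157 higher (0.628%) and 362 lower (1.45%), 87 of them with a group at 0. Groups did not overlap for 1129 genes with every RIPC library above both controls (4.52%) and for 2059 genes with every RIPC library below them (8.24%). Of the genes tested, 810 had no read in the 5 sham libraries and passed the filter through IRI libraries.

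**Figure D2:**
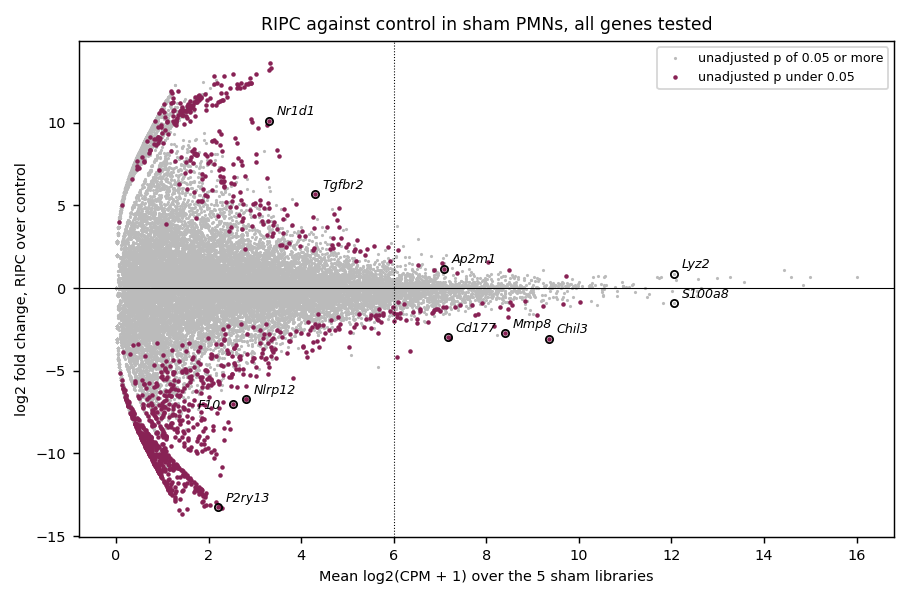
log2 fold change of RIPC over control in sham PMNs against mean level over the 5 libraries for the 25002 genes tested, with genes at an unadjusted p under 0.05 in dark red and the well-expressed threshold dotted. Of the 1150 genes at an unadjusted p under 0.05, 542 had no read in any library of the control or of the RIPC group.

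F10 was at 58.2 and 41.0 CPM in the control libraries and 0.189, 0.485 and 0.484 CPM in the RIPC libraries. Both controls were high, all RIPC libraries were close to 0, and the groups did not overlap. The reads behind these values were 1475 and 881 in the controls and 4, 11 and 10 after RIPC. Its mean was 49.6 ± 12.2 CPM (SD, n = 2) in the controls and 0.386 ± 0.171 CPM (SD, n = 3) after RIPC, a log2 fold change of -6.99 (SE 0.61) with an edgeR adjusted p of 0.0270. The control level was 127 times the RIPC level by the fitted values. The call rested on several of the libraries. Without RIPC 2 its adjusted p was 0.0856 and without RIPC 3 it was 0.104, while without control 1, control 2 or RIPC 1 it was 0.0327, 0.0134 and 0.0263, and its log2 fold change ranged from -7.18 to -6.66. Both DESeq2 fits called it. It was 1.00 in a fit to the 5 sham libraries alone. After IRI the gene was high in both groups, at 166 and 235 CPM in the IRI controls and 328, 262 and 242 CPM in the IRI RIPC libraries. In TECs of sham-operated mice F10 was at most 0.0819 TPM, against 17.2 and 23.2 TPM in the sham control PMNs. The gene lies at chr8:13037308-13056676 of GRCm38 on the plus strand.

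Nr1d1 was at 0.0789 and 0 CPM in the control libraries and 71.8, 17.9 and 64.2 CPM in the RIPC libraries, from 2 and 0 reads in the controls. It was near 0 in both controls and present in every RIPC library, with RIPC 2 lowest. The ratio of RIPC to control reads per library size was 1181, with a 95% exact counting interval of 326.8 to 9759 that covers counting error only. The fitted log2 fold change was 10.13 (SE 1.84), with an edgeR adjusted p of 0.444, and it was not called by that test. It was called by both DESeq2 fits. Leaving out each library gave adjusted p between 0.178 and 0.629 and a log2 fold change between 9.30 and 13.21. After IRI it was at 20.1 and 13.9 CPM in the IRI controls and 5.21, 8.52 and 15.1 CPM in the IRI RIPC libraries. It was expressed in TECs of sham-operated mice at 28.1 to 54.8 TPM, above its 4.35 to 16.7 TPM in the RIPC PMNs of sham-operated mice. Nr1d1 lies at chr11:98767932-98775333 of GRCm38 on the minus strand.

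The start regions of F10, the gene called, and of Nr1d1, a marker gene of the comparison that edgeR did not call, are shown. They are RefSeq windows of 300 bases on GRCm38.p6, from upstream of the start to just within the transcript, 5′ to 3′ on the gene's strand. The letters CCAAT on either strand, a common promoter motif, are in capitals. F10 is at chr8:13037058-13037357 (plus strand) and Nr1d1 at chr11:98775328-98775627 (minus strand).
F10: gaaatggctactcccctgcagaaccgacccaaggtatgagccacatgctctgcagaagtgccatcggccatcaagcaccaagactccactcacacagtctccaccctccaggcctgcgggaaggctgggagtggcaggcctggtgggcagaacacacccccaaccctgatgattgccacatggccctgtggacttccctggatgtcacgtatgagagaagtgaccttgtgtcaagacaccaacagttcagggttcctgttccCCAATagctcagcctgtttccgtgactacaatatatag
Nr1d1: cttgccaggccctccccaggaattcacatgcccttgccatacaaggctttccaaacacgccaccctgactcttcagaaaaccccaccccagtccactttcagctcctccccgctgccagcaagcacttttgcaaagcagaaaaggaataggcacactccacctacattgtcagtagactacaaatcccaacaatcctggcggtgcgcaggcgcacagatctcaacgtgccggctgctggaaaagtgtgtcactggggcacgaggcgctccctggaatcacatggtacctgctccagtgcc
The F10 window held 1 match to CCAAT and the Nr1d1 window 0, and 37.4% of 32851 windows of this length in the table held at least 1. The E-box letters CACGTG, a motif bound by clock factors among others, occurred in neither window and in 7.15% of all windows. These are matches of letters in these windows and were not tested for binding.

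**Figure D3:**
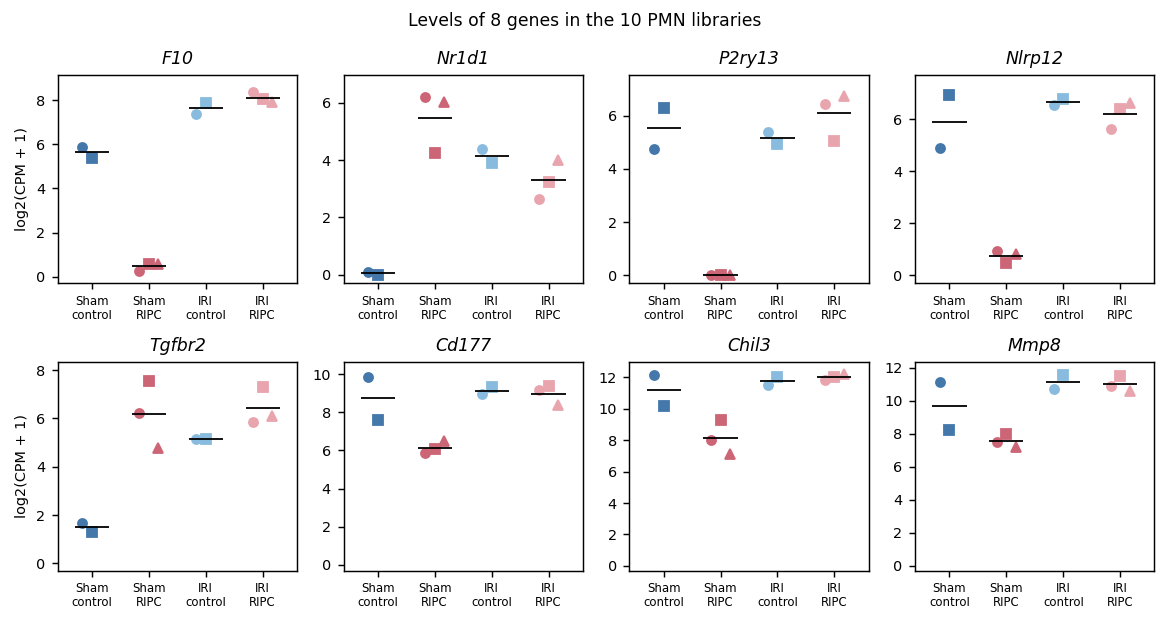
Levels of 8 genes as log2(CPM + 1) in the 10 PMN libraries. Points are libraries (circle, square and triangle for replicates 1, 2 and 3) and lines are group means. For F10, P2ry13 and Nlrp12 the sham RIPC libraries lie near 0 while the other 3 groups are high, and for Nr1d1 and Tgfbr2 the sham controls are lowest.

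Beside F10, the genes with the smallest p among those below both controls in every RIPC library did not pass the edgeR adjusted threshold. P2ry13, a receptor for ADP, was at 26.01 and 77.8 CPM in the control libraries and had no read after RIPC. The controls were at least 372-fold higher, counting 0 as 3 reads per library, and the edgeR adjusted p was 0.234. That bound covers counting error only, and libraries of the same group also differed by genes without a read, as given above. Nlrp12, an NLR protein that restrains inflammatory signaling, was at 28.6 and 119 CPM in the control libraries and 0.895, 0.397 and 0.774 CPM in the RIPC libraries, a log2 fold change of -6.74 (SE 0.87) with an edgeR adjusted p of 0.234. For both genes the controls were the spread group, control 2 being the higher. The log2 fold change of Nlrp12 was -7.47 without control 1 and -5.32 without control 2. When 1 RIPC library was left out, the edgeR adjusted p was 0.190 to 0.280 for P2ry13 and 0.230 to 0.306 for Nlrp12. Crtc3, a coactivator of CREB, was at 29.1 and 43.1 CPM in the controls and 0.471, 0.705 and 0.629 CPM after RIPC. The histamine receptor gene Hrh2 and Ccdc88b, a cytoskeletal adaptor of immune cells, had no read after RIPC and 8.68 and 21.1 CPM and 11.0 and 22.0 CPM in the controls. Reep4 also had none, against 9.87 and 12.4 CPM. Hsd11b1, which regenerates active glucocorticoid, was at 81.3 and 19.2 CPM in the controls and 0.518, 1.41 and 0.436 CPM after RIPC. Pik3r6, a regulatory subunit of PI3Kγ, and Mtrex, the RNA helicase of the nuclear exosome, were the other 2, with controls at 22.8 to 47.4 CPM and 21.7 to 23.9 CPM and RIPC libraries at no more than 0.0943 and 0.353 CPM. For these 7 genes the edgeR adjusted p lay between 0.337 and 0.444.

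In the other direction Tgfbr2, the type II receptor for TGF-β, had reads in every library and was at 2.17 and 1.49 CPM in the control libraries and 73.5, 186 and 26.7 CPM in the RIPC libraries. The controls were close to each other and the RIPC libraries spread widely above them, with a log2 fold change of 5.70 (SE 1.10) and an edgeR adjusted p of 0.591. Gm5150, a predicted member of the SIRP receptor family whose reads may be shared with near copies, was at 6.43 and 5.30 CPM in the controls and 119, 56.0 and 54.1 CPM after RIPC. Genes with no read in the controls were Eif2ak3, which encodes the stress kinase PERK, at 40.7, 26.9 and 16.2 CPM after RIPC, Lysmd3, Fam118b, Lmbr1l and the processed pseudogene Gm13370. Counting 0 as 3 reads per library, RIPC was at least 146-fold higher for Lmbr1l, the lowest of the 5, and at least 216-fold higher for Eif2ak3. These bounds, too, cover counting error only and not the spread between libraries. Rragc, a GTPase of the amino acid arm of mTORC1, had 1 read in the controls and was at 27.9, 21.3 and 37.1 CPM after RIPC. Selenon, a selenoprotein of the endoplasmic reticulum, was at 0.0789 and 0.0465 CPM in the controls and 0.518, 16.7 and 39.8 CPM after RIPC, so that RIPC 1 differed little from the controls. Without RIPC 1 its edgeR adjusted p was 0.0263. The edgeR adjusted p of these genes lay between 0.345 and 0.694. Both DESeq2 fits called each of them, as they did Nr1d1. Eif2ak3 was low in the IRI controls too, at 0.0829 and 0.226 CPM, while the other 9 genes higher in sham RIPC, Nr1d1 included, had 10 CPM or more in both IRI controls.

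Genes were called well-expressed when their mean log2(CPM + 1) over the 5 sham libraries was 6 or more, about 63 CPM, and there were 1540 of them. None passed the edgeR adjusted threshold, the smallest adjusted p being 0.675, and 55 had an unadjusted p under 0.05. Of these, 9 had a higher level after RIPC (0.584%) and 46 a lower one (2.99%). Both shares were below the 1.22% and 3.38% of all genes tested. DESeq2's Wald test called 0 of the 1540 higher and 6 lower, and with apeglm 6 higher and 20 lower. Over all genes tested the shares called were 1.72% and 1.98% by the Wald test and 0.628% and 1.45% with apeglm. The median log2 fold change of the well-expressed genes was -0.06, against 0.00 over all genes tested.

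Of the 8 lower ones with the smallest p, Cd177, Trem1 and Mmp8 belong to the neutrophil identity list and Chil3 to the granule proteins. Cd177, a surface glycoprotein of neutrophils that binds PECAM1, was at 917 and 195 CPM in the control libraries and 56.6, 67.0 and 87.9 CPM in the RIPC libraries. Its log2 fold change was -2.98 (SE 0.61), with an edgeR adjusted p of 0.675. Chil3, a chitinase-like granule protein, was at 4573 and 1171 CPM in the controls and 262, 625 and 140.3 CPM after RIPC, and Mmp8, the neutrophil collagenase, at 2224 and 302 CPM in the controls and 178, 255 and 145 CPM after RIPC. In each of the 3 genes control 1 was far above control 2, and control 2 was still above all RIPC libraries. Mmp8 had a log2 fold change of -2.71 (SE 0.69) with an edgeR adjusted p of 0.705. That log2 fold change became -0.68 without control 1 and -3.50 without control 2. Chil3 went from -3.07 to -1.80 without control 1, and Cd177 to -1.50. Trem1, a receptor that amplifies inflammatory signals, was at 286 and 612 CPM in the controls and 119, 208 and 103 CPM after RIPC, with control 2 the higher, and its log2 fold change was -1.65 (SE 0.40), which became -2.13 without control 1 and -0.97 without control 2. The others were Capg, an actin-capping protein, the membrane protein Serinc3, Hcls1, a cortactin-like adaptor of hematopoietic cells, and the CDK inhibitor Cdkn2d, with log2 fold changes of -2.05, -2.27, -1.50 and -1.82. That of Serinc3 was -1.08 without control 1 and -2.88 without control 2. Hcls1 had close values within groups, at 129 and 113 CPM in the controls and 56.5, 39.0 and 32.4 CPM after RIPC.

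None of the 8 higher ones with the smallest p belongs to a list used here. Ap2m1, a subunit of the clathrin adaptor AP-2, was at 83.5 and 82.1 CPM in the control libraries and 202, 172 and 186 CPM in the RIPC libraries. Both groups were tight and did not overlap, with a log2 fold change of 1.17 (SE 0.39), an unadjusted p of 0.0152 and an edgeR adjusted p of 0.705. Copz1, a subunit of the COPI coat, was at 90.5 and 59.9 CPM in the controls and 178, 138 and 162 CPM after RIPC, and Hexa, a lysosomal hexosaminidase subunit, at 71.9 and 68.9 CPM in the controls and 154, 259 and 200.1 CPM after RIPC. Os9, which takes part in the degradation of misfolded proteins in the endoplasmic reticulum, was at 45.9 and 58.2 CPM in the controls and 196, 118 and 97.1 CPM after RIPC. Dock8, a guanine exchange factor for CDC42, was at 24.7 and 33.7 CPM in the controls and 73.6, 293 and 74.0 CPM after RIPC, with RIPC 2 far above RIPC 1 and 3. Its log2 fold change, 2.33, was 1.37 without RIPC 2. DESeq2 with apeglm called Ap2m1, Hexa and Dock8, at s-values of 0.002, 0.0057 and 0.0088, and DESeq2's Wald test did not call them. Pld4, a lysosomal nuclease of myeloid cells, was at 129 and 159 CPM in the controls and 608, 503 and 201 CPM after RIPC. The remaining 2 were gene models without a known product, Gm37376 and Gm43305, with log2 fold changes of 0.75 and 1.07. That of Gm37376 was 0.36 without control 1 and 1.26 without control 2. Gm37376 overlapped between groups, since RIPC 1 at 811 CPM was below control 2 at 814 CPM.

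Gene lists are described by their counts and their median, with no test of the list, and members not tested lay on the X chromosome, did not pass the filter or, for Faslg, found no match. Of 30 neutrophil identity genes 29 were tested, 21 of them well-expressed, and 25 had a lower and 4 a higher fitted level after RIPC. None passed the edgeR adjusted threshold, 6 were lower and 0 higher at an unadjusted p under 0.05 (20.7% lower, against 3.38% of all genes), and DESeq2 called 1 lower by the Wald test and 3 with apeglm, where 1.98% and 1.45% of all genes were called lower. Every RIPC library was below both controls for 7 genes, or 24.1% of those tested, and above for 0, against 8.24% and 4.52% of all genes. The median log2 fold change was -0.92. The members with the highest CPM were S100a8, its partner S100a9 and Retnlg, a secreted resistin-like protein. S100a8 was at 9446 and 3890.3 CPM in the controls and 4454, 3917 and 2218 CPM after RIPC. S100a9 followed it, at 7924 and 3325 CPM in the controls and 3989.6, 2991 and 1973 CPM after RIPC. Retnlg was at 3476 and 1017 CPM in the controls and 1184, 1239 and 846 CPM after RIPC. In all 3, control 1 was the highest library and control 2 lay within the range of the RIPC libraries. The mean over the list was 8.09 and 6.49 in the controls and 7.02, 7.00 and 6.11 after RIPC, in log2(CPM + 1). The difference of RIPC minus control was -0.58, which became 0.22 without control 1 and -1.37 without control 2. Control 1 was also the library with the lowest proximal tubule sum and control 2 the one with the highest, and the part of that in these values was not tested.

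Granule proteins, counted over 23 tested genes of 25, had 18 lower and 3 higher fitted levels after RIPC, and genes with no read in the 5 libraries counted in neither direction, with a median log2 fold change of -1.27. At an unadjusted p under 0.05, 7 were lower (30.4%, against 3.38% of all genes) and 0 higher. None was called by edgeR, and DESeq2 called 3 of the 23 lower by the Wald test and 4 with apeglm, against 1.98% and 1.45% of all genes. Of the members transcribed in bone marrow precursors, Mpo and Elane had no read in any sham library, and Prtn3, which encodes proteinase 3, was at 22.9 CPM in control 1 and had no read in the other 4. The members with the highest CPM were Lyz2, which encodes lysozyme, and the cathepsins Ctss and Ctsb, all of which macrophages express as well. Lyz2 was at 2248 and 4546 CPM in the controls and 8004, 8697 and 2019.7 CPM after RIPC, so RIPC 3 was lower than both controls while RIPC 1 and 2 were higher. The monocyte and macrophage sum was likewise highest in RIPC 1 and 2, at 3651 and 4296 TPM, and lowest in RIPC 3, at 1545 TPM, and its part was not tested. Chil3 and Mmp8 belong to this list, and Adam8, a membrane metalloprotease, was at 175 and 298 CPM in the controls and 118, 55.3 and 96.4 CPM after RIPC. The difference of the list means was -1.15, -0.14 without control 1 and -2.17 without control 2.

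**Figure D4:**
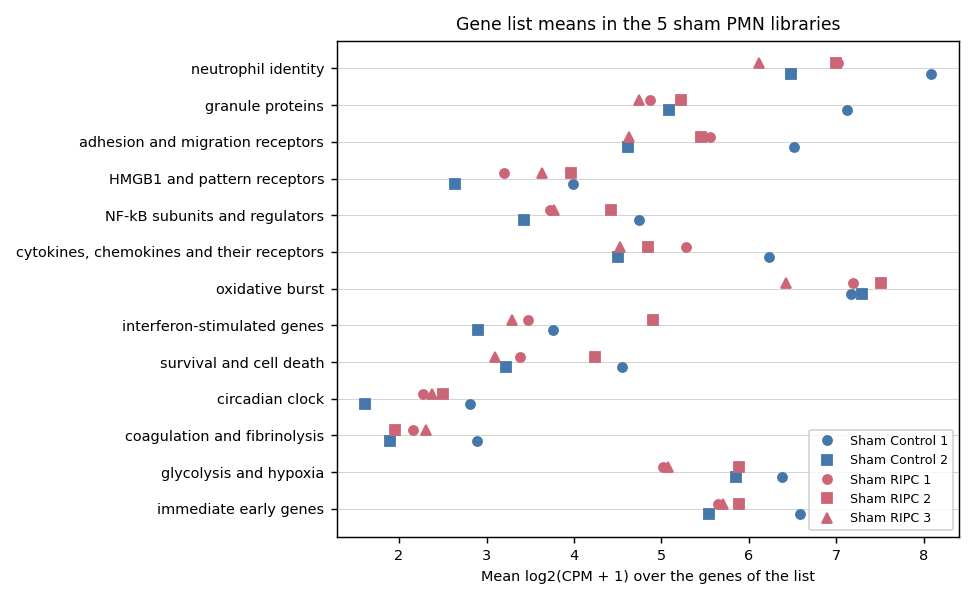
Mean log2(CPM + 1) of 13 gene lists in each of the 5 sham PMN libraries (blue control, red RIPC, with a circle, square and triangle for replicates 1, 2 and 3). Control 1 is the highest library in 11 of the lists.

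Adhesion and migration receptors had a median log2 fold change of -0.64, with 18 of 26 tested genes lower. At an unadjusted p under 0.05, 3 were lower and 1 higher (11.5% and 3.85%, against 3.38% and 1.22% of all genes), and edgeR called none. DESeq2 called 2 of the 26 lower by the Wald test and 1 with apeglm, against 1.98% and 1.45% of all genes. C5ar1, the receptor for the complement fragment C5a, was at 602 and 326 CPM in the controls and 393, 299 and 159.6 CPM after RIPC, and Selplg, the selectin ligand PSGL-1, at 264 and 365 CPM in the controls and 247, 190.4 and 217 CPM after RIPC. The groups overlapped for C5ar1, while for Selplg the RIPC libraries were all somewhat lower. The chemokine receptor Cxcr1 and the junctional adhesion protein Jaml were high in control 1 alone, since Cxcr1 had 14.8 CPM there and no read in the other 4 libraries and Jaml was at 167 and 0 CPM in the controls and 4.10, 0.176 and 0 CPM after RIPC.

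The receptors and adaptors of HMGB1 and of pathogen patterns had few abundant members, 5 of 26 tested being well-expressed. Their median log2 fold change was 0.53, with 16 higher and 10 lower. Cd14, the TLR4 co-receptor, was at 2841 and 964 CPM in the controls and 1269, 1522 and 512 CPM after RIPC. Hmgb1 itself was at 237 and 137 CPM in the controls and 354, 191 and 179 CPM after RIPC, and Clec7a, the β-glucan receptor, at 67.8 and 147 CPM in the controls and 327, 239.7 and 34.7 CPM after RIPC. For each of these the groups overlapped. Ticam1, which encodes the adaptor TRIF, was the member with an unadjusted p under 0.05 (3.85% of the list higher, against 1.22% of all genes), with no read in the controls or RIPC 1 and 38.7 and 12.0 CPM in RIPC 2 and 3. Tlr4, named here after its values were seen because it is the receptor the study asks about, was at 34.2 and 0 CPM in the controls and 0.471, 9.04 and 13.9 CPM after RIPC, so it varied as much within each group as between them. By DESeq2's Wald test 1 of the 26 was called higher, and 0 with apeglm, against 1.72% and 0.628% of all genes.

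NF-κB subunits and regulators (23 tested) had a median log2 fold change of -0.36, 10 higher and 13 lower. Nfkbia, the inhibitor that NF-κB itself induces, was at 1091 and 312 CPM in the controls and 654, 540.4 and 326 CPM after RIPC, and the regulators Nfkbiz and Tnfaip3 ranged from 15.4 to 289.9 CPM and from 3.92 to 173 CPM. Nfkb2, the precursor of p52, had an unadjusted p of 0.00527 and was at 0.316 and 0.0930 CPM in the controls and 0.848, 35.5 and 30.2 CPM after RIPC. It was the 1 member under 0.05, or 4.35% higher, against 1.22% of all genes. It was high in RIPC 2 and 3 and near 0 in the other libraries. edgeR called none of the list, and both DESeq2 fits called 1 of the 23 higher. Of all genes 1.72% were called higher by the Wald test and 0.628% with apeglm.

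Among 34 tested cytokines, chemokines and their receptors the median log2 fold change was -0.32, with 12 higher and 22 lower, and 4 were lower (11.8%, against 3.38% of all genes) and 0 higher at an unadjusted p under 0.05. edgeR called none, and DESeq2 called 3 of the 34 lower by the Wald test and 1 with apeglm, against 1.98% and 1.45% of all genes. Il1b, a main inflammatory cytokine of neutrophils, was at 1656 and 1492 CPM in the controls and 1921, 1471 and 1079.9 CPM after RIPC. Its 5 libraries lay within 2-fold of each other and the groups overlapped. The chemokine gene Ccl6 was at 1405 and 906 CPM in the controls and 1183, 742 and 272 CPM after RIPC and Ccl4 at 312 and 623 CPM in the controls and 720.0, 1139 and 309 CPM after RIPC. Tnfrsf1a, a receptor for TNF, was the lower member with the smallest p, at 142 and 126 CPM in the controls and 45.6, 15.5 and 13.0 CPM after RIPC, with a log2 fold change of -2.44 (SE 0.57) and an edgeR adjusted p of 0.705. Il6 and Cxcl10 had reads in control 1, 20.2 and 15.3 CPM, and 2 reads in all in the other 4 libraries.

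Oxidative burst genes, 15 of 19 tested being well-expressed, had a median log2 fold change of -0.33, and 15 were lower and 4 higher. Gpx1, a peroxide-removing enzyme, was at 796 and 3089.7 CPM in the controls and 1878, 1713 and 858 CPM after RIPC, and Cyba, the p22phox subunit of the NADPH oxidase, at 709 and 1281 CPM in the controls and 941, 1067 and 396 CPM after RIPC. Prdx5, a peroxiredoxin, was at 404 and 1345 CPM in the controls and 652, 564 and 330.4 CPM after RIPC. All 3 were highest in control 2. Hmox1, heme oxygenase, was the member with an unadjusted p under 0.05 (5.26% of the list lower, against 3.38% of all genes), at 187 and 55.4 CPM in the controls and 47.3, 56.2 and 15.8 CPM after RIPC, so that control 2 lay just below RIPC 2, with 0 members called by edgeR or either DESeq2 fit.

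Interferon-stimulated genes had the highest median of the 13 lists, 0.94, with 27 of 38 tested genes higher and 10 lower, and with every RIPC library above both controls for 6 (15.8%, against 4.52% of all genes) and below both for 3 (7.89%, against 8.24%). Only 5 of the 38 were well-expressed. The antiviral membrane proteins Ifitm2, Ifitm1 and Ifitm3 are near copies whose reads may be shared. Ifitm2 was at 1091 and 875 CPM in the controls and 567, 765 and 514 CPM after RIPC, while Ifitm1 and Ifitm3 overlapped between groups, ranging from 195 to 484 CPM and from 200.1 to 480.5 CPM. Ifi47, an interferon-induced GTPase, had no read in the controls and was at 59.4, 80.2 and 21.1 CPM after RIPC. Ifitm6 was at 1229 and 165 CPM in the controls and 36.2, 170.4 and 54.9 CPM after RIPC, with control 2 just below RIPC 2. Slfn1 was at 108 and 99.3 CPM in the controls and 35.9, 21.2 and 53.5 CPM after RIPC. edgeR called none of these, and 2 were higher and 3 lower at an unadjusted p under 0.05 (5.26% and 7.89%, against 1.22% and 3.38% of all genes). DESeq2 called 1 of the 38 higher by the Wald test, against 1.72% of all genes, and 2 lower with apeglm, against 1.45%.

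Survival and cell death genes (24 tested, 11 higher and 13 lower) had a median log2 fold change of -0.05. Mcl1, on which neutrophil survival depends, was at 228 and 111 CPM in the controls and 95.5, 136 and 134 CPM after RIPC, and Bcl2l1, which encodes BCL-XL, at 171 and 137 CPM in the controls and 252, 211 and 111 CPM after RIPC. Bcl2a1b, whose reads may be shared with its near copies, ranged from 66.3 to 255 CPM. Serpinb1a, an inhibitor of neutrophil serine proteases, was at 159 and 28.2 CPM in the controls and 2.64, 0 and 0 CPM after RIPC. The death receptor gene Fas was at 43.8 and 0.186 CPM in the controls and 0, 0.882 and 0 CPM after RIPC. Both genes had an unadjusted p under 0.05 (8.33% of the list lower, against 3.38% of all genes), with control 1 the highest library. edgeR called none, and each DESeq2 fit called 1 of the 24 lower, against 1.98% of all genes by the Wald test and 1.45% with apeglm.

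None of the 22 circadian clock genes tested was well-expressed. Beside Nr1d1, Per2, a core repressor, had 20.1 and 0.139 CPM in the controls and no read after RIPC. Per1 was at 70.3 and 46.1 CPM in the controls and 51.7, 28.3 and 43.4 CPM after RIPC, while the repressor Nfil3 was at 206 CPM in control 1, 91.3 and 81.3 CPM in RIPC 1 and 2 and near or at 0 in the other 2 libraries. The median of the list was -0.28, with 9 higher and 13 lower. At an unadjusted p under 0.05, 3 were higher (13.6%, against 1.22% of all genes) and 1 lower (4.55%, against 3.38%). The higher ones include Nr1d1, which was given with the comparison. edgeR called none, and each DESeq2 fit called 2 of the 22 higher, Nr1d1 included, and 1 lower. Of all genes 1.72% and 1.98% were called by the Wald test and 0.628% and 1.45% with apeglm.

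Of 30 coagulation and fibrinolysis genes tested, F10 was the call by edgeR, 17 were higher and 13 lower, and the median log2 fold change was 0.30. F13a1, the A subunit of factor XIII and a monocyte gene too, was at 367 and 35.5 CPM in the controls and 117, 143 and 7.31 CPM after RIPC, and Plaur, the urokinase receptor, at 395 and 133 CPM in the controls and 180.1, 111 and 129 CPM after RIPC. Plat, tissue plasminogen activator, was high in RIPC 3 alone, at 286 CPM, against 12.0 to 26.4 CPM in the other 4. Serpinb2 and F2, the prothrombin gene, had reads in control 1, 13.5 and 14.8 CPM, and at most 1 read in the other 4 libraries. At an unadjusted p under 0.05, 3 were lower, F10 included (10.0%, against 3.38% of all genes), and 0 higher. The DESeq2 fits called 2 of the 30 lower each, F10 included, and the Wald test 1 higher. Of all genes 1.98% were called lower by the Wald test and 1.45% with apeglm, and 1.72% higher by the Wald test.

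Glycolysis and hypoxia genes had the most members at an unadjusted p under 0.05, 8 lower (34.8%, against 3.38% of all genes) and 0 higher of 23 tested, with 18 lower and 5 higher in all and a median log2 fold change of -0.90. Every RIPC library was below both controls for 7 (30.4%, against 8.24% of all genes). Slc16a3, the lactate exporter MCT4, was at 401 and 302 CPM in the controls and 202, 195 and 169 CPM after RIPC, and Gpi1, glucose-6-phosphate isomerase, at 302 and 329 CPM in the controls and 132, 196 and 146 CPM after RIPC. Both had controls close to each other and RIPC libraries below them, with log2 fold changes of -0.90 (SE 0.28) and -0.995 (SE 0.39) and an edgeR adjusted p of 0.705 for each. Eno1, an enolase, was at 966 and 1550.0 CPM in the controls and 687, 879 and 372 CPM after RIPC, whereas Gapdh, at 1053 and 1459 CPM in the controls and 1321, 877 and 409 CPM after RIPC, and Aldoa, at 511 and 1417 CPM in the controls and 852, 717 and 455 CPM after RIPC, overlapped between groups. edgeR called none and DESeq2's Wald test none, while apeglm gave 1 of the 23 lower, against 1.45% of all genes. The difference of the list means was -0.80, and it was -0.53 without control 1 and -1.06 without control 2, so its sign held without either control.

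Immediate early genes (28 tested) had a median log2 fold change of 0.17, 16 higher and 12 lower. Dusp1, Zfp36 and Fos, which cells induce within minutes of stimulation or handling, had the highest CPM. Dusp1, a phosphatase gene, was at 1958 and 1046 CPM in the controls and 1878, 2121 and 1046 CPM after RIPC. Zfp36, which encodes an RNA-destabilizing protein, was at 1798 and 570.0 CPM in the controls and 1532, 1386 and 1402 CPM after RIPC. Fos was at 1681 and 647 CPM in the controls and 1202, 1219 and 1565 CPM after RIPC. The groups overlapped for Dusp1, Zfp36 and Fos, and control 2 was the lowest or level with RIPC 3. Ier3 was at 343 and 102 CPM in the controls and 45.2, 38.1 and 97.0 CPM after RIPC. Egr2, a transcription factor gene, was at 39.5 and 91.4 CPM in the controls and 3.06, 0 and 0.0968 CPM after RIPC. The nuclear receptor gene Nr4a3 was at 0.0789 and 0 CPM in the controls and 29.7, 0 and 10.1 CPM after RIPC. Ier3 and Egr2 were below both controls in every RIPC library, Nr4a3 overlapped between groups, and all 3 had an unadjusted p under 0.05 (7.14% of the list lower and 3.57% higher, against 3.38% and 1.22% of all genes). edgeR called none. DESeq2's Wald test called 1 of the 28 higher and 1 lower, against 1.72% and 1.98% of all genes, and apeglm 2 lower, against 1.45%.

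The mean over each list, in log2(CPM + 1), differed between RIPC and control with a sign that for most lists turned when 1 of the controls was left out. For HMGB1 and pattern receptors the difference was 0.28, 0.95 without control 1 and -0.39 without control 2. Adhesion and migration receptors went from -0.35 to 0.59 without control 1 and to -1.30 without control 2, NF-κB genes from -0.11 to 0.55 and -0.77, and cytokines and chemokines from -0.49 to 0.38 and -1.35. Survival genes went from -0.31 to 0.35 and -0.98, and immediate early genes from -0.32 to 0.20 and -0.84. Clock genes went from 0.17 to 0.77 and -0.43, and coagulation genes from -0.25 to 0.25 and -0.75. For interferon-stimulated genes the difference was 0.56, 0.99 and 0.13, and it was 0.05 without RIPC 2. The mean of that list was 4.91 in RIPC 2, against 3.48 and 3.29 in RIPC 1 and 3 and 3.76 and 2.90 in the controls, so RIPC 1 and 3 lay between the controls. For oxidative burst genes it was -0.19, -0.25 and -0.13, and 0.12 without RIPC 3. That of NF-κB genes was 0.01 without RIPC 1. For clock, coagulation and immediate early genes the difference of the means and the median log2 fold change had opposite signs.

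The spread between libraries of a group varied with level. The median within-group SD of log2(CPM + 1), pooled over both groups, was 1.65 for genes with a mean between 1 and 2, 1.79 between 2 and 4, 1.07 between 4 and 6, 0.71 between 6 and 8 and 0.51 between 8 and 10. It was 0.58 for the 65 genes above 10. Over the 1540 well-expressed genes the median was 0.65, and it was 0.56 without RIPC 3, the library in which 492 of them lay farthest from the median of the 5. The common biological coefficient of variation was 1.65 over the 10 PMN libraries, 1.61 over the 5 sham libraries and 1.39 over the 5 IRI libraries. Correlations of well-expressed genes ranged from 0.736 to 0.836 among RIPC libraries, against 0.553 between the controls, 0.641 to 0.758 across these groups and 0.864 to 0.912 across the IRI groups.

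**Figure D5:**
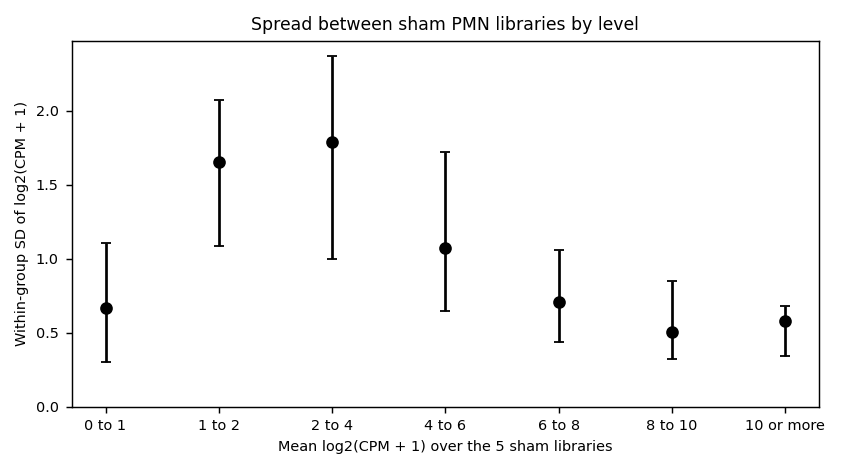
Within-group SD of log2(CPM + 1) by mean level over the 5 sham PMN libraries. Points are medians over genes and bars the interquartile range, and the median falls from 1.79 at levels of 2 to 4 to 0.51 at levels of 8 to 10.

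The well-expressed genes with the least spread were Psmc2, a proteasome ATPase, and 4 sequences of the olfactory and vomeronasal receptor families or without a known product, Olfr613, Gm47022, Vmn1r-ps144 and Gm37086. Whether the reads assigned to those 4 came from them was not tested. Psmc2 was at 276 and 287 CPM in the controls and 292, 294 and 282 CPM after RIPC, a within-group SD of 0.03. Those with the most spread were of other kinds. Umod, a transcript of the distal nephron, was at 31.5 and 4330.2 CPM in the controls and 515, 288 and 119 CPM after RIPC. Egf, also made there, was at 21.2 and 1394 CPM in the controls and 73.3, 29.2 and 50.5 CPM after RIPC. Both were highest in control 2, the library with the highest proximal tubule sum. In TPM, Umod reached 832 in the sham controls, against at most 142 in TECs of sham controls. Saa3, an acute phase protein of myeloid cells, was at 1313 and 44.0 CPM in the controls and 14.8, 82.5 and 16.7 CPM after RIPC, highest in control 1, and F13a1 and the arrestin-like gene Arrdc3, at 213 and 83.2 CPM in the controls and 227, 1.72 and 104 CPM after RIPC, completed the 5. Their within-group SD lay between 2.27 and 3.01.

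The same comparison after IRI called 0 of 25002 genes by edgeR, with 680 at an unadjusted p under 0.05, 506 called by DESeq2's Wald test and 45 with apeglm. The test of the difference between the sham and the IRI effect called 0 genes by edgeR, 1434 at an unadjusted p under 0.05, 812 by DESeq2's Wald test and 298 with apeglm. F10 had a log2 fold change of 0.47 (SE 0.52) after IRI, and the difference from the sham effect was 7.46 (SE 0.83) with an edgeR adjusted p of 0.194. For Nr1d1 the difference was -10.95 (SE 2.03), with an edgeR adjusted p of 0.719. The neutrophil genes Cd177, Chil3, Mmp8 and Trem1 stood above sham control 2 in all 5 IRI libraries. Cd177 was at 487 and 649 CPM in the IRI controls and 581, 654 and 332 CPM in the IRI RIPC libraries, and Mmp8 at 1701 and 3004 CPM in the IRI controls and 1879.6, 2905 and 1555 CPM in the IRI RIPC libraries.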

How the data were processed

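Poly(A) RNA of sorted cells was converted to cDNA, amplified and read from a single end. According to the submitters' processing notes and the study's methods, reads were trimmed with Trim Galore 0.6.4 and quantified with Salmon 1.0.0 against Gencode vM23. The authors deposited estimated counts per transcript, not normalized, with TPM values and effective lengths, in 2 files per library whose difference is not given in the sources used here. TPM, scaled by the authors to transcript length and library total, were averaged over both files and summed per gene for levels between genes.

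Estimated counts of both files were added, summed over the transcripts of a gene with Gencode M21 (GRCm38) and rounded. Of 140748 transcripts, 884 had no match, holding 0.195% to 0.255% of the reads of a sham PMN library. As the study's methods describe, genes of the X and Y chromosomes and of the mitochondria were excluded. In R 4.3.3, edgeR 4.0.16 (with limma 3.58.1) fitted the 10 PMN libraries by quasi-likelihood with 4 group means, TMM scaling and filterByExpr, and genes were called by its F test at a Benjamini-Hochberg adjusted p under 0.05. The study used DESeq2 with apeglm, which was run as an alternative here (DESeq2 1.42.0, apeglm 1.24.0, s-value under 0.01). SE was the log2 fold change over the square root of F. On simulated counts the script was checked for recovering the median fold change of changed genes, and not for its rate of false calls. A count of 0 allows up to 3 reads, 0.134 to 0.153 CPM in a sham library before TMM scaling. Intervals and floors cover counting error only, since PCR reads are not independent molecules.

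The genes given are F10 and Nr1d1, any adjusted call, the 10 per direction with the smallest p among groups that do not overlap and with at least 10 CPM in the higher group, the 8 per direction with the smallest p among well-expressed genes, in each list the 3 highest and up to 3 with the smallest p under 0.05, and the 5 well-expressed genes with least and with most spread. Genes given for their level or spread are described by level. A gene that this rule names is not reported here. Genes, lists and tests were chosen with earlier results of these data known. The alternatives were the DESeq2 fits, DESeq2 size factors, no filter, at least 10 counts in every library, each file alone, a length offset, robust dispersions, sex-chromosome and mitochondrial genes included, the compared groups alone, the replicate number as a block, a pseudocount of 0.1 CPM and leaving out each library. The authors' comparison tables were not used here.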

Additional observations from a re-analysis of the deposited data

How the results depend on the processing

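In sham PMNs 1 gene was called, and the count stayed at 1 with DESeq2 size factors, the first file alone, a length offset, robust dispersions or the added chromosomes. It was 923 by DESeq2's Wald test, 519 with apeglm, 139 with no filter on low counts, and 0 with at least 10 counts in every library (F10 was not among the 6739 genes then tested), with the second file alone or with the compared groups alone. With the replicate number as a block it was 0, and the edgeR adjusted p of F10 was 0.670. The deviations of same-numbered libraries had r of -0.134 and 0.101. With 2 controls the deviations of one mirror those of the other, so these values cannot show whether same-numbered libraries share more than a number. Without 1 library the count ranged from 0 to 11, being 11 without control 1, 4 without control 2 and 3 without RIPC 1; where 1 control remained it was assumed to vary like the other groups. After IRI 0 genes were called, against 506 by the Wald test, 45 with apeglm and 18 with no filter, and for the difference between sham and IRI effects 0, against 812, 298 and 101. The cause of these differences was not tested. F10 kept its direction, with adjusted p of 0.0563 for the second file alone. Of 996 values of named genes under alternatives, 872 kept direction and side of the threshold, 115 passed it and 5, all of F10, no longer did. The other 4 turned without control 1, as the ranges over left-out libraries show: Jaml from -9.78 to 8.05, Cxcl10 from -10.53 to 2.76, Fas from -11.98 to 0.64 and Serpinb2 from -10.27 to 1.94. For Cxcr1, Il6 and F2 both groups were then at 0 and no value could be given. Without control 1, 7 of 13 list mean differences changed sign, and without control 2, 2 did; DESeq2 size factors changed none. The median spread of well-expressed genes, 0.65, was 0.66 with a pseudocount of 0.1 CPM and ranged from 0.56 to 0.67 without 1 RIPC library. Depth was alike in the 5 libraries, and 2 controls were compared with 3 RIPC libraries.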
